A study of Mus musculus with 9 samples.

Results

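Fkbp5 was examined here with 6 further genes known to respond to glucocorticoids (Tsc22d3, Per1, Sgk1, Klf9, Zbtb16 and Cebpd) and with Nr3c1, which encodes the glucocorticoid receptor. These are 8 of the 19752 genes with a value in the series. They were chosen by their log2 array intensities in treated against untreated mice, with results of these data already known, to ask whether targets of the stress hormone moved together after an interferon. Each gene was read from the probe set that carried only its symbol and had the highest mean. The differences of these 8 genes from untreated mice are therefore given as a description. Where limma calls of these differences are mentioned below, they too describe the values and serve as no test.

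The arrays measured messenger RNA of sorted macrophages of the mouse peritoneal cavity (C57BL/6 males aged 6 weeks). In the IFNa group (n = 4) mice received 10000 U of recombinant interferon alpha under the skin, and in the IFNg group (n = 2) 8000 U of recombinant interferon gamma, with cells taken 2 h later. The untreated group (n = 3) had no treatment. Treated cells were labelled F4/80+ ICAM2+ and untreated cells F4/80+, both sorted on a FACSAria into TriZol. No vehicle-injected group is among the samples, so interferon, injection and handling, and the difference in sort labels, cannot be told apart in a comparison with untreated mice. The labels do not say whether the arrays of a group came from separate mice, so p-values measure the spread between these samples. The cells are bulk samples, in which fewer cells of a type and less RNA per cell cannot be told apart.

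Glucocorticoids enter the cell and bind the glucocorticoid receptor, which waits in the cytoplasm in a complex with Hsp90 and its co-chaperones. The bound receptor moves to the nucleus, where it binds palindromic response elements and raises or lowers its target genes. Fkbp5 is such a target: its protein joins the Hsp90 complex, lowers the receptor's affinity for hormone and so closes a feedback loop. In macrophages the hormone is best known for damping inflammatory genes. Interferons act through other factors, which bind the interferon-stimulated response element (ISRE) or the gamma-activated site (GAS).

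Promoter sequences from RefSeq (GRCm38.p6) show what these 2 kinds of element look like beside the genes described. The 3 sequences below are the 250 bases before an annotated start of Fkbp5 (chr17:28486150-28486399, minus strand), Sgk1 (chr10:21993640-21993889, plus strand) and Gbp7 (chr3:142530086-142530335, plus strand), an interferon-inducible GTPase whose array profile lay nearest to that of Fkbp5. Capitals mark matches, searched on both strands, to the receptor's palindrome (AGAACA, any 3 bases, then its reverse complement TGTTCT), to the ISRE core (GAAA, any 2 bases, GAAA) or to the GAS core (TTC, any 3 bases, GAA).
Fkbp5: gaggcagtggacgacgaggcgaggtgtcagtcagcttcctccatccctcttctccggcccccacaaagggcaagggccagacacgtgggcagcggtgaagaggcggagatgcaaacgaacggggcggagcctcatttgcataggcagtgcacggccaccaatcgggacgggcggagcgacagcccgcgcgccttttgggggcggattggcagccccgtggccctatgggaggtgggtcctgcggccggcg
Sgk1: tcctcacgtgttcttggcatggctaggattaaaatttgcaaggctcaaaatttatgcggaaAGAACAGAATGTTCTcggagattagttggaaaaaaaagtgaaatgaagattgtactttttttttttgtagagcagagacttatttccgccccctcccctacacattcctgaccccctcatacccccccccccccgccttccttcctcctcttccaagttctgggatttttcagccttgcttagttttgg
Gbp7: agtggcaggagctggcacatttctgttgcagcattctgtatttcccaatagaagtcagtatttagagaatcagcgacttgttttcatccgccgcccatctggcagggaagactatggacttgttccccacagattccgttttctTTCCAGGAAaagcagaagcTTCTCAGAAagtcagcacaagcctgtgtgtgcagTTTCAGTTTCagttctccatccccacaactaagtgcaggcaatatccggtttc
The Fkbp5 window held no match to any of the 3. The Sgk1 window held the palindrome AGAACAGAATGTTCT, from position -189 to -175 relative to the start. Of 32851 such windows in RefSeq, 3 held the receptor's palindrome with any 3 bases between its arms (0.00913%). The Gbp7 window held an ISRE core, TTTCAGTTTC on the opposite strand at -53 to -44, and 2 GAS cores, TTCCAGGAA and TTCTCAGAA. Nampt and Dtx3l, whose profiles lay next nearest to Fkbp5, had 1 window each, with no match to any of the 3, as for Fkbp5. No window was available for Zbp1 and Parp9, which followed them. ISRE cores were found in 2.98% and GAS cores in 7.02% of all windows. A single arm of the palindrome, AGAACA, was found in 16.1% of windows on either strand, and overlaps the palindrome wherever that occurs.

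Of the 8 genes, 5 had at least 1 window in the table. Sgk1 had 6 windows, of which 1 held the palindrome, 3 a single arm, 1 an ISRE core and 1 a GAS core. Tsc22d3 had 3 windows, 1 with a single arm and 1 with a GAS core. Per1 had 2 windows, 1 of them with a GAS core, and the only Klf9 window held a GAS core. These matches describe letters in short windows, and only exact matches were counted. A missing match says nothing of elements elsewhere or of elements that depart from these letters.

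Of the 9 arrays, 2 stood apart before any comparison. The spread of intensities, as the log2 ratio between the quartiles, was 2.16 for IFNa replicate 4 and 2.27 for untreated replicate 1, against 2.68 to 3.03 for the others, and their mean correlations with the other arrays were 0.956 and 0.961 against 0.976 to 0.982. Median intensities lay between 162.2 and 178.3. Markers of large peritoneal macrophages were present on every array: the summed intensity of 15 such genes was 84896 to 90596 in untreated, 78583 to 87731 in IFNa and 82409 to 86413 in IFNg arrays. Gata6, the transcription factor that defines these cells, fell in both comparisons (IFNa -1.05 ± 0.17, IFNg -1.16 ± 0.21 log2 ± SE; limma adjusted p = 0.00997 and 0.0242). It was the only 1 of the 15 called. Of the 15, 7 lay above 0 and 8 below in each comparison, with medians of -0.01 with IFNa and -0.04 with IFNg. Of 11 T and NK cell markers, 6 were among the dimmest 25% of genes on every array. Summed B cell markers reached 2731 in IFNa replicate 2 against 840 to 1297 elsewhere, and summed mast cell markers 3327 in IFNa replicate 4 against 1350 to 1751 elsewhere. Neutrophil and eosinophil markers summed to 3305 to 3504 in untreated and 2457 to 2897 in treated arrays. Markers of small peritoneal macrophages, monocytes and dendritic cells summed to 3376 to 4499 in untreated and 5206 to 7799 in treated arrays. Only 1 of these 11, Fcgr4, was called higher, in both comparisons. Of the 11, 9 lay below 0 in each comparison, with medians of -0.09 with IFNa and -0.18 with IFNg. The part of these shifts in the results below was not tested.

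Nr3c1 encodes the receptor itself. Its intensity was 695.9, 1163 and 1037 in the untreated arrays, 1700, 1455, 1592 and 1376 in the IFNa arrays, and 1065 and 1137 in the IFNg arrays. All 4 IFNa arrays lay above all untreated and both IFNg arrays, whereas both IFNg arrays lay inside the untreated range. The fitted difference from untreated was 0.69 ± 0.17 (log2 ± SE; 95% interval 0.30 to 1.08; 1.62-fold) for IFNa and 0.22 ± 0.21 (-0.24 to 0.69) for IFNg.

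Fkbp5 stood far above the untreated level after either interferon. Its intensity was 102.8, 124 and 178.4 in the untreated arrays, 760.8, 631.4, 641.7 and 627.2 in the IFNa arrays, and 996.5 and 620.4 in the IFNg arrays. No treated array overlapped an untreated one: the lowest treated value, 620.4, stood well above the highest untreated value. Mean log2 intensity was 7.04 ± 0.40 (SD, n = 3) untreated, 9.37 ± 0.13 (SD, n = 4) with IFNa and 9.62 ± 0.48 (SD, n = 2) with IFNg. The difference from untreated was 2.33 ± 0.21 (SE; 95% interval 1.86 to 2.81), a ratio of 5.04, for IFNa and 2.58 ± 0.26 (2.01 to 3.15), a ratio of 5.98, for IFNg. In the order of levels, IFNg stood above IFNa, but the arrays overlapped and these neighbours did not differ beyond their spread.

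**Figure D1:**
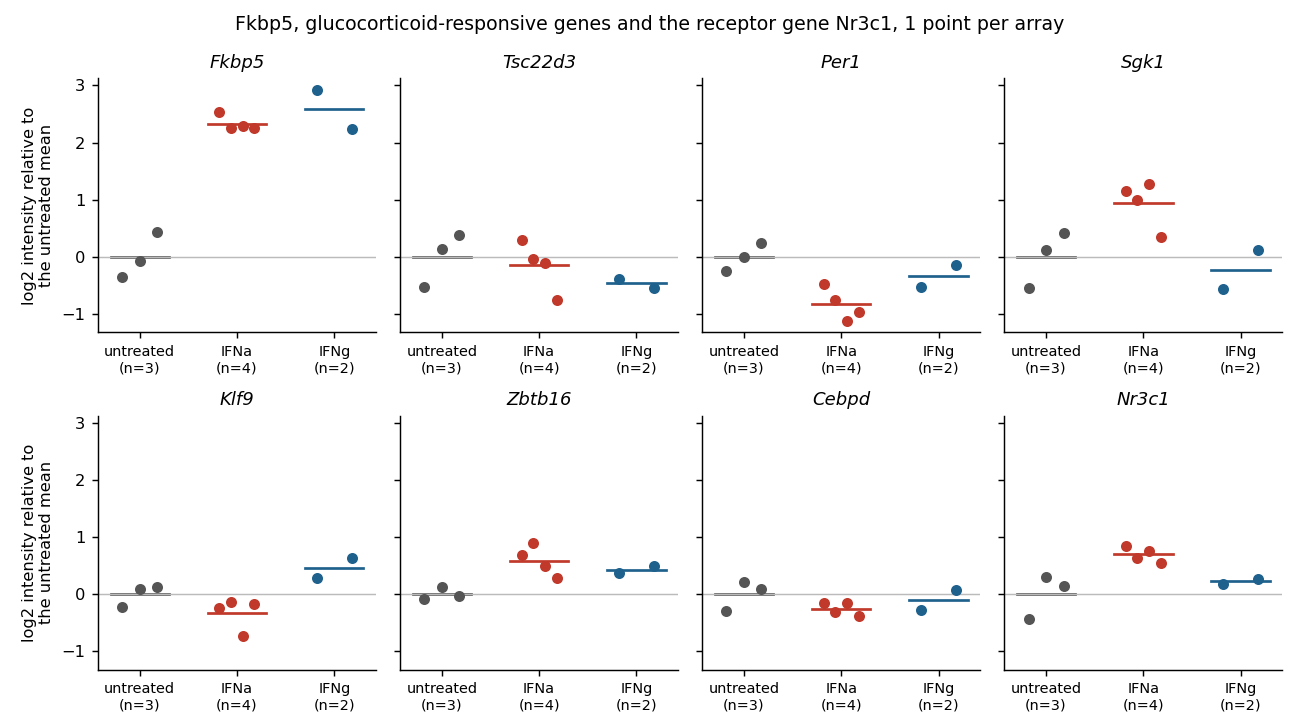
Each panel plots 1 gene, with log2 intensity relative to the mean of the untreated arrays on the vertical axis, 1 point per array and a bar at each group mean (untreated n = 3, IFNa n = 4, IFNg n = 2). Fkbp5 lies between 2.24 and 2.92 in all treated arrays, while no other gene has a treated array above 1.27.

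The remaining targets did not share this pattern. Sgk1, a kinase that regulates ion channels and cell survival, had intensities of 355.7, 561.6 and 687.3 untreated, 1154, 1024, 1242 and 658.8 with IFNa, and 347.7 and 562.6 with IFNg. Of the IFNa arrays, 3 of 4 lay above every untreated array and replicate 4, an array of narrow range, lay among them, as did 1 of the IFNg arrays. The difference was 0.94 ± 0.29 (0.30 to 1.59; 1.92-fold) for IFNa and -0.22 ± 0.34 (-0.99 to 0.55) for IFNg.

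Zbtb16, which encodes the zinc finger factor PLZF, measured 853, 992.5 and 890.5 untreated, 1462, 1702, 1277 and 1106 with IFNa, and 1177 and 1280 with IFNg. All 6 treated arrays lay above all untreated arrays. The difference was 0.59 ± 0.15 (0.25 to 0.93; 1.5-fold) for IFNa and 0.43 ± 0.18 (0.02 to 0.84; 1.35-fold) for IFNg. PLZF is also known from innate-like T cells. The summed T and NK markers, 6 of 11 of them dim on every array, were 845 to 1073 in untreated, 753 to 1009 in IFNa and 768 to 802 in IFNg arrays, and their part in the Zbtb16 values was not tested.

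Klf9, a Krüppel-like transcription factor, measured 973.4, 1202 and 1241 untreated, 952.5, 1034, 678.5 and 996.1 with IFNa, and 1372 and 1756 with IFNg. Both IFNg arrays lay above all untreated arrays, whereas 2 of 4 IFNa arrays lay below them and the other two among them. The difference was -0.33 ± 0.18 (-0.72 to 0.07) for IFNa and 0.45 ± 0.21 (-0.02 to 0.93) for IFNg.

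Per1, a period gene of the circadian clock that the hormone induces quickly in many tissues, had the lowest value of the 8 relative to untreated mice with IFNa. Its intensity was 395.8, 466 and 556 untreated, 334.8, 277.3, 214.7 and 241.2 with IFNa, and 325.4 and 425.9 with IFNg. All 4 IFNa arrays lay below all untreated arrays, as did 1 of the IFNg arrays. The difference was -0.83 ± 0.18 (-1.24 to -0.42; ratio 0.563) for IFNa and -0.33 ± 0.22 (-0.83 to 0.16) for IFNg.

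Tsc22d3 encodes GILZ, a mediator of the hormone's anti-inflammatory action. It measured 485.2, 761.5 and 912.1 untreated, 848.5, 683.7, 650 and 410 with IFNa, and 529.7 and 477.8 with IFNg. No treated array exceeded the untreated maximum, and the untreated arrays themselves spread widely. The difference was -0.15 ± 0.27 (-0.75 to 0.45) for IFNa and -0.47 ± 0.32 (-1.18 to 0.25) for IFNg.

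Cebpd, a transcription factor of acute-phase responses, measured 138.6, 197.8 and 181.1 untreated, 153.2, 136.9, 153.5 and 130.2 with IFNa, and 140.1 and 180 with IFNg. The groups overlapped throughout. The difference was -0.25 ± 0.15 (-0.60 to 0.09) for IFNa and -0.10 ± 0.18 (-0.52 to 0.31) for IFNg.

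**Figure D2:**
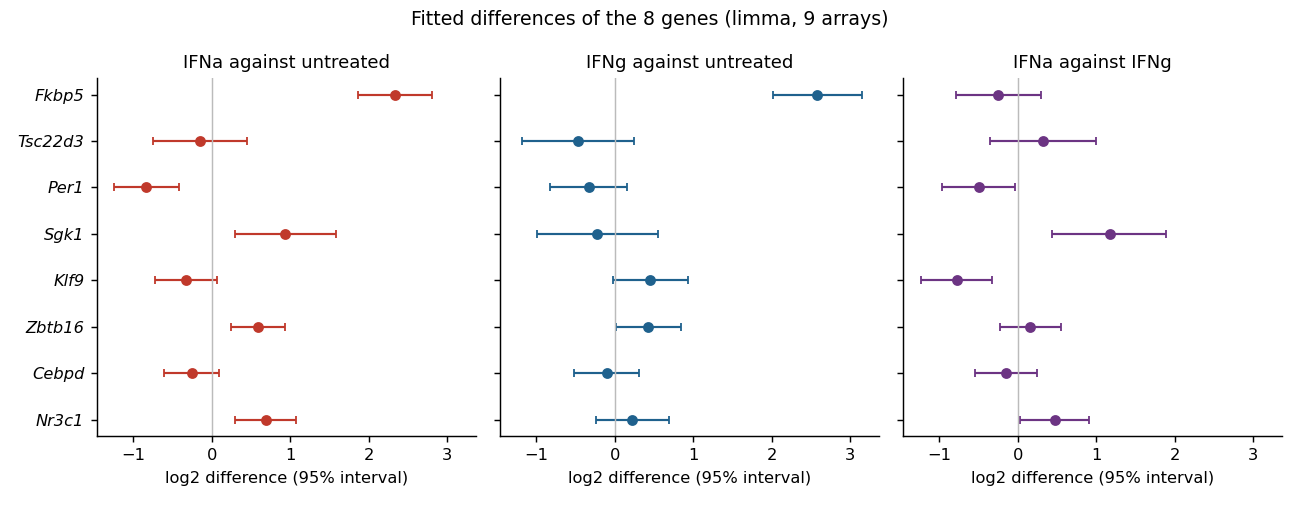
Points are fitted log2 differences on the horizontal axis and bars their 95% intervals from limma over 9 arrays, for each interferon against untreated mice and for the 2 interferons against each other. Fkbp5 stands at 2.33 and 2.58 against untreated, while the other 7 genes lie between -0.83 and 0.94.

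Across the 8 genes, the IFNa comparison held 4 above 0 and 4 below, with a median of 0.22 against -0.02 over all genes. The IFNg comparison also held 4 above and 4 below, with a median of 0.06 (-0.13 without the 2 arrays of narrow range) against -0.06 over all genes. Without Fkbp5 the medians of the other 7 were -0.15 and -0.10, with 3 above 0 and 4 below in each. The comparisons share the untreated arrays. At an adjusted p under 0.05 over all genes, Fkbp5 was called higher and Per1 lower with IFNa, where 1.79% of all genes were called higher, 0.856% lower and 2.65% either way. With IFNg only Fkbp5 was called, where 1.24% of all genes were called higher and 1.35% either way. With IFNa the arrays did not overlap for 4 of 8 genes (10.4% of all genes), 3 of them higher (3.68%) and 1 lower (6.75%). With IFNg they did not overlap for 3 of 8 (27.8% of all genes), all higher (12.3%). Nothing is read from these counts, since the same comparisons chose the genes.

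Array by array, the other 6 targets had no common shift. Their mean log2 intensity relative to untreated was 0.21, 0.11, -0.06 and -0.28 in the IFNa arrays and -0.19 and 0.11 in the IFNg arrays. The untreated arrays gave -0.32, 0.11 and 0.21. By that range, 5 of the 6 treated means lay inside it and that of IFNa replicate 1 was level with its upper end. The lower end, -0.32, is untreated replicate 1 alone, an array of narrow range. Against untreated replicates 2 and 3 only, IFNa replicates 3 and 4 (-0.06 and -0.28) and IFNg replicate 1 (-0.19) lay below both. IFNa replicate 2 and IFNg replicate 2 (0.11) were then level with the lower end. In each treated array 1 or 2 of the 6 genes exceeded every untreated array and 1 to 3 fell short of every one. Fkbp5 on the same arrays lay 2.24 to 2.92 above the untreated mean.

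Untreated replicate 1 was the lowest untreated array for all 8 genes. It was also the lowest for 40.9% of all genes and for 70.9% of genes brighter than the median, and 7 of the 8 are brighter than the median. Without this array and IFNa replicate 4, the differences from untreated with IFNa were 2.18 for Fkbp5, -0.91 for Per1, 0.87 for Sgk1, 0.65 for Zbtb16 and 0.52 for Nr3c1. With IFNg they were 2.40 for Fkbp5, -0.73 for Tsc22d3 (-0.47 with all arrays), -0.49 for Sgk1 and 0.00 for Nr3c1. Leaving out single arrays moved Per1 with IFNa between -0.95 and -0.71. Its call was lost without any of 7 single arrays (IFNg replicate 1 or 2, IFNa replicate 2, 3 or 4, untreated replicate 2 or 3). Leaving out an IFNg array cannot move a difference between IFNa and untreated arrays, and Per1 stayed at -0.83. It only changes the spread that the fit pools over groups. The same holds wherever a call of IFNa against untreated was lost below without an IFNg array. The Per1 call was also lost with median centring, among other settings.

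The direct comparison of IFNa with IFNg was not used to choose the genes, although it uses the same treated arrays. None of the 8 genes passed: limma called 0 at an adjusted p under 0.05 and 4 at an unadjusted p under 0.05, where 0.977% and 7.07% of all genes did. Sgk1 was 2.24-fold higher with IFNa (1.17 ± 0.33, 95% interval 0.44 to 1.89; limma adjusted p = 0.225), with 4 of 4 IFNa arrays above both IFNg arrays. Klf9 was lower with IFNa (-0.78 ± 0.20, -1.23 to -0.33; limma adjusted p = 0.158), with 4 of 4 IFNa arrays below both IFNg arrays. Nr3c1 was 0.47 ± 0.20 higher (0.03 to 0.91; limma adjusted p = 0.659), again in 4 of 4 arrays. These 3 genes are those whose treated groups did not overlap, against 28.4% of all genes. Fkbp5 differed by -0.25 ± 0.24 between the interferons (-0.79 to 0.30; limma adjusted p = 0.802), an interval that leaves room for a difference in either direction. Without the 2 arrays of narrow range, Sgk1 (1.36, limma adjusted p = 0.0115) and Nr3c1 (0.52, limma adjusted p = 0.0421) passed, where 2.74% of all genes did.

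The genes whose profiles lay nearest to Fkbp5 were known interferon-inducible genes. Nearness was the root mean square difference, over the 9 arrays, of log2 values relative to the untreated mean. The 5 nearest were Gbp7 at 0.25, Nampt at 0.26, Dtx3l at 0.31, Zbp1 at 0.33 and Parp9 at 0.34. Gbp7 is a guanylate-binding protein of host defence, Nampt an enzyme that makes an NAD precursor, Zbp1 a sensor of Z-form nucleic acids, and Dtx3l and Parp9 are partners in ubiquitin and ADP-ribose signalling. All 5 were called higher in both comparisons, by 2.25 to 2.78 with IFNa and 2.24 to 2.82 with IFNg. Since nearness was measured on the same 9 arrays, a rise like that of Fkbp5 was built into the choice, and these calls are no test. Of the other 7 genes described, the nearest was Zbtb16, at a distance of 1.57 and rank 773 of 19751, followed by Nr3c1 at 1.58 (rank 794) and Sgk1 at 1.66 (rank 1196). Tsc22d3 at 2.21 (rank 17768) and Per1 at 2.53 (rank 19580) lay among the farthest.

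**Figure D3:**
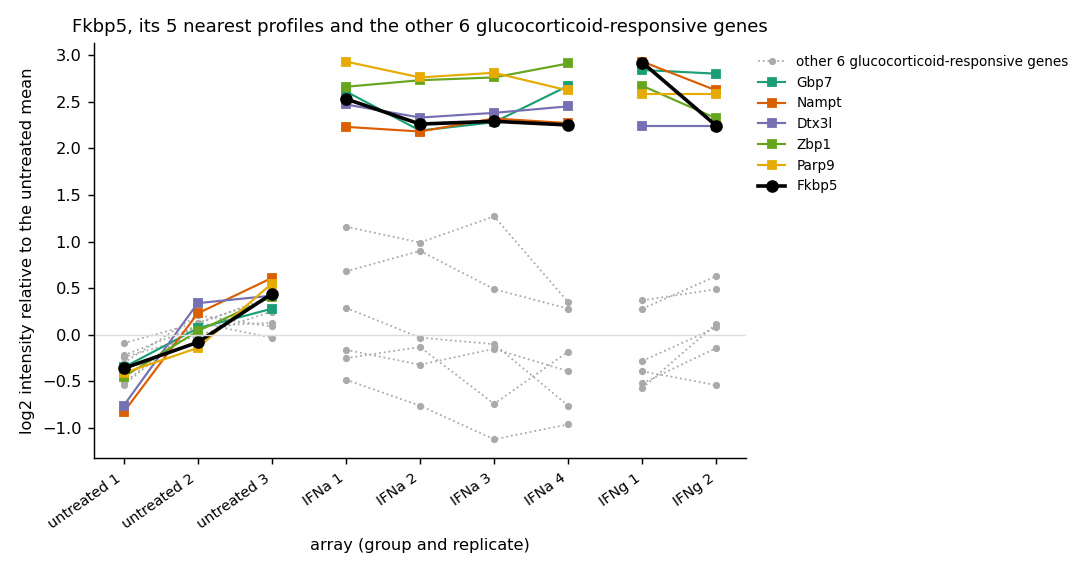
Log2 intensity relative to the untreated mean is plotted for each of the 9 arrays, for Fkbp5 (black), its 5 nearest genes (coloured) and the other 6 glucocorticoid-responsive genes (grey, Nr3c1 not shown). Lines join arrays of a group only to guide the eye, and Fkbp5 runs with the coloured genes at 2.24 to 2.92 in treated arrays while the grey genes stay between -1.12 and 1.27.

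The genes nearest to Per1 were Ncdn at 0.16, Kdm5b at 0.17, Kmt2b and Wdr81 at 0.19 and Setd1a at 0.20. Kdm5b, Kmt2b and Setd1a encode enzymes that remove or add methyl groups on histone H3, and Ncdn encodes neurochondrin. With IFNa they differed from untreated by -0.79 to -0.65, and Ncdn, Kmt2b and Wdr81 were called lower. With IFNg they differed by -0.49 to -0.20 and none was called. These differences also follow from choosing genes near Per1 on the same arrays.

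Other genes that glucocorticoids are known to induce were read from a list of 24 measured genes. Over all genes 1.79% were called higher and 0.856% lower with IFNa, and 1.24% and 0.111% with IFNg, as a background. With IFNa 1 of 24 was called higher and 0 lower, with a median of -0.05, and 9 had an unadjusted p under 0.05, as did 11.9% of all genes. With IFNg limma called 0 of 24, with a median of -0.15, and 6 had an unadjusted p under 0.05, as did 8.23% of all genes. The called gene was Mertk, a receptor for the uptake of dead cells. It measured 1957, 2261 and 2550 untreated, 3725, 3385, 3187 and 3543 with IFNa, and 2485 and 2909 with IFNg. It rose with IFNa by 0.62 ± 0.13 (limma adjusted p = 0.0318), in 4 of 4 arrays, and lost that call without any of 7 single arrays (IFNg replicate 1 or 2, IFNa replicate 1, 2 or 3, untreated replicate 1 or 2; limma adjusted p = 0.0634 to 0.139). Without the 2 arrays of narrow range 1 of 24 was called higher and 4 lower with IFNa, and 2 higher and 3 lower with IFNg, where 5.6% and 2.55% of all genes were called in either direction.

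A further 4 genes of that list are named after their values were seen, because they had the widest differences from untreated or are related to such a gene. Mt2, a metallothionein that binds zinc and is induced by metals as well as by the hormone, measured 334.8, 444.2 and 422 untreated, 2078, 573.4, 539.6 and 4267 with IFNa, and 4050 and 3693 with IFNg. All treated arrays lay above all untreated ones, but the IFNa arrays spread widely (IFNa 1.70 ± 0.63, IFNg 3.28 ± 0.76; limma adjusted p = 0.291 and 0.0918). Its neighbour in function Mt1 measured 1822, 2734 and 2825 untreated, 2601, 2838, 2911 and 3533 with IFNa, and 4378 and 4543 with IFNg (0.29 ± 0.17 and 0.89 ± 0.21; limma adjusted p = 0.64 and 0.0956).

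Dusp1, a phosphatase that switches off stress kinases and is a classic hormone target, measured 3302, 5736 and 6887 untreated, 2482, 2436, 1722 and 702.2 with IFNa, and 1496 and 2602 with IFNg. All 6 treated arrays lay below all untreated arrays (IFNa -1.62 ± 0.44, IFNg -1.36 ± 0.53; limma adjusted p = 0.112 and 0.515). Rgs2, a regulator of G protein signalling, measured 1488, 2662 and 2325 untreated, 1281, 1430, 1063 and 327.8 with IFNa, and 396.3 and 657 with IFNg. It too lay below all untreated arrays in every treated array (-1.23 ± 0.47 and -2.04 ± 0.56; limma adjusted p = 0.305 and 0.196).

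Machinery around the receptor was read from further lists. Over all genes 2.65% were called with IFNa and 1.35% with IFNg, and 11.9% and 8.23% had an unadjusted p under 0.05. Of all 19752 genes, 9124 lay above 0 with IFNa and 7886 with IFNg. Of 15 chaperones and co-chaperones limma called 0 in either comparison, with 5 and 1 at an unadjusted p under 0.05. Their medians were 0.38 with IFNa and 0.46 with IFNg, with 13 and 15 of 15 above 0, and 0.21 and 0.26 without the 2 arrays of narrow range. Ptges3, the p23 co-chaperone, had the differences 0.77 ± 0.30 and 1.07 ± 0.35, and Dnaja1, an Hsp40 protein, 0.60 ± 0.23 and 0.54 ± 0.27. Untreated replicate 1, an array of narrow range, was the lowest array for both (1083 and 776.6), and untreated replicate 3 (2778 and 1469) lay inside the range of the treated arrays. Of 9 coregulators limma called 0, with 0 and 1 at an unadjusted p under 0.05. Their medians were -0.21 with IFNa and -0.00 with IFNg, the latter 0.04 with median centring. Of the 13 other FKBP family genes limma called 0 in either comparison, with 0 and 1 at an unadjusted p under 0.05, and their differences ranged from -0.22 to 0.38 with IFNa and from -0.14 to 0.57 with IFNg. Their medians were -0.06 and 0.03, the latter -0.09 without the 2 arrays of narrow range. Fkbp4, which encodes the co-chaperone that favours hormone binding, had 0.38 ± 0.25 and 0.46 ± 0.29.

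Among 7 genes of hormone handling and related receptors, 1 was called higher with IFNa and 0 with IFNg, where 1.79% and 1.24% of all genes were. An unadjusted p under 0.05 was found for 3 and 2 of the 7, against 11.9% and 8.23% of all genes. The medians were -0.19 and 0.05, the latter -0.09 without the 2 arrays of narrow range. The called gene was Abcb1a, which encodes a drug efflux pump that also exports glucocorticoids. It measured 160.5, 163.8 and 173.8 untreated, 382.8, 397.1, 358.3 and 418.2 with IFNa, and 212.3 and 196.9 with IFNg, and no group overlapped another. It rose with IFNa by 1.23 ± 0.10 (limma adjusted p = 1.18e-04), in 4 of 4 arrays, and differed from untreated by 0.30 ± 0.12 with IFNg (limma adjusted p = 0.553). The 2 interferons differed by 0.93 ± 0.12 (limma adjusted p = 0.00531), a call lost without IFNg replicate 1 or IFNg replicate 2 (limma adjusted p = 0.0877 to 0.138).

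Relatives of the 8 genes gave 1 called higher and 1 lower of 21 with IFNa and 0 with IFNg by limma. Over all genes 1.79% were called higher and 0.856% lower with IFNa. An unadjusted p under 0.05 was found for 10 and 5 of 21, against 11.9% and 8.23% of all genes, and the medians were -0.19 and -0.11. Sgk3, a kinase related to Sgk1, rose with IFNa by 0.92 ± 0.18 (limma adjusted p = 0.0238), and Cebpa, a relative of Cebpd that supports the myeloid lineage, fell by 0.93 ± 0.21 on the log2 scale (limma adjusted p = 0.05 after rounding). Each of these calls was lost without any of 7 single arrays: IFNg replicate 1 or 2, IFNa replicate 1, 2 or 3 and untreated replicate 2 for both, with untreated replicate 1 for Sgk3 and untreated replicate 3 for Cebpa (limma adjusted p = 0.0545 to 0.128 and 0.094 to 0.244). Of 16 circadian clock genes limma called 0 in either comparison, and the medians were -0.14 and -0.29. With IFNa 13 of the 16 lay below 0 and with IFNg 15, as did 10628 and 11866 of all 19752 genes. An unadjusted p under 0.05 was found for 6 and 4 of the 16, against the same 11.9% and 8.23% of all genes. Cry2, a repressor of the clock, had -0.54 ± 0.13 with IFNa and -0.45 ± 0.16 with IFNg.

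Immediate early and heat shock genes, which respond to handling as well as to signals, were read beside these. Of 25 immediate early genes 2 were called higher and 3 lower with IFNa, and 2 higher and 0 lower with IFNg. Over all genes 1.79% were called higher and 0.856% lower with IFNa, and 1.24% and 0.111% with IFNg. An unadjusted p under 0.05 was found for 9 of 25 in each comparison, against 11.9% and 8.23% of all genes. The medians of the 25 were -0.13 and -0.04. Atf3, a stress-induced repressor, rose in both (1.61 ± 0.21 and 1.71 ± 0.25; limma adjusted p = 0.00225 and 0.00929), and the IFNg call was lost without IFNg replicate 1 or IFNg replicate 2 (limma adjusted p = 0.0994 to 0.14). Jund, Ier2 and Nr4a1 fell with IFNa, by 0.61, 0.84 and 0.87 on the log2 scale (limma adjusted p = 0.011, 0.0402 and 0.0399), and Gadd45b rose by 0.78 (limma adjusted p = 0.0476). Egr2 measured 171.5, 191.3 and 195.1 untreated, 170.5, 176.7, 161.1 and 169.5 with IFNa, and 364.4 and 919.2 with IFNg. It rose with IFNg by 1.64 ± 0.30 (limma adjusted p = 0.0301), but by 0.97 without IFNg replicate 2 and by 2.31 without IFNg replicate 1. Leaving out any single array ended the call of Ier2 except for IFNa replicates 3 and 4, of Nr4a1 except for IFNa replicate 4 and untreated replicate 1, of Egr2 except for IFNg replicate 1 and IFNa replicate 4, and of Gadd45b except for IFNa replicate 1. The resulting limma adjusted p was 0.0573 to 0.141, 0.0746 to 0.118, 0.0568 to 0.114 and 0.0606 to 0.132. Jund lost its call without untreated replicate 2 (limma adjusted p = 0.0724). Median centring ended the IFNa calls of Mertk, Cebpa, Ier2, Nr4a1 and Gadd45b, and the fit without the 2 arrays of narrow range ended the IFNg call of Egr2. Of 11 heat shock genes limma called 0 in either comparison. An unadjusted p under 0.05 was found for 6 and 2 of the 11, against 11.9% and 8.23% of all genes. All 11 lay above 0 in both, as did 9124 of 19752 genes with IFNa and 7886 with IFNg. The medians of the 11 were 0.45 and 0.42, which were 0.26 and 0.28 without the 2 arrays of narrow range. Untreated replicate 1 was the lowest array for Hsph1 (165.6) and Hspe1 (593.5).

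**Figure D4:**
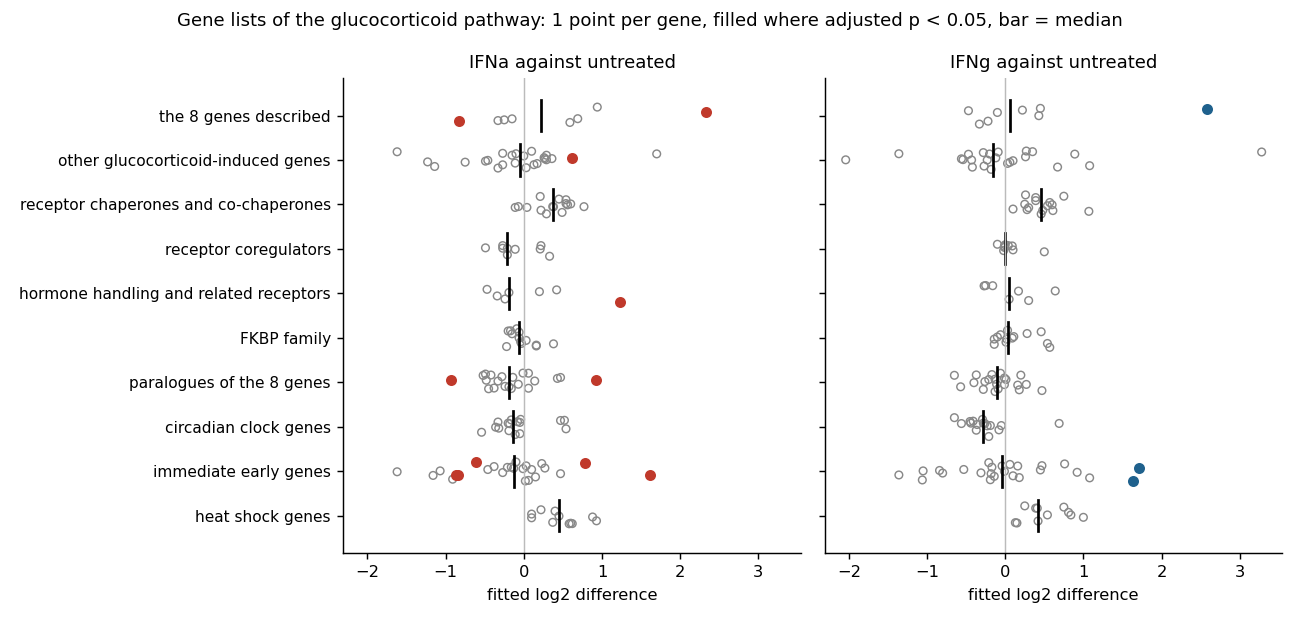
Each point is the fitted log2 difference of 1 gene on the horizontal axis, for IFNa and for IFNg against untreated, with the lists on the vertical axis. Filled points passed an adjusted p under 0.05 and bars are list medians, which lie between -0.29 and 0.46, while Fkbp5 is the filled point at 2.33 and 2.58 in the top row.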

How the data were processed

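Messenger RNA was measured on 9 Affymetrix arrays. The deposited values are array intensity on a linear scale, made by the authors with Affymetrix Power Tools and RMA (background correction, normalization and probe summary), per the submitters' processing notes, with no version. Which arrays were normalized together is not given in the sources used here. The number of arrays limits the precision.

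Of 24922 probe sets, 21425 carried 1 gene symbol, 1399 several and 2098 none or were not listed. The log2 of each intensity was taken, and each gene was read from its single-symbol probe set of highest mean, giving 19752 genes. No filter on low values was applied. Group means of the 9 arrays were estimated in limma 3.58.1 (R 4.3.3), with 6 residual and 3.62 prior degrees of freedom, and the procedure was tested on simulated data. Two-sided p-values were corrected over all genes with the Benjamini-Hochberg procedure, and a gene was called at 0.05. Spread was pooled over groups, so the IFNg pair borrows that of the other arrays. Promoter windows were searched in Python 3.11.15.

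The 8 genes and all lists were chosen with earlier results of these data known. Named genes were the 8, called list members (or up to 2 with the smallest p where a list had none), and the 5 nearest profiles to Fkbp5 and to Per1. Genes that share their probe sets were not analysed here. Alternatives were quantile normalization, median centring, an intensity trend, robust variances, removal of the dimmest 30% of genes, only the groups compared, array weights, replicate blocks, all single-symbol probe sets, and leaving out the 2 arrays of narrow range or each array in turn.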

Additional observations from a re-analysis of the deposited data

Results flagged for a closer look

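In the group of 4 IFNa arrays, 1 array stood apart from the other 3 for 3 of the genes named. Fkbp5 was highest in IFNa replicate 1, at 760.8 against 627.2 to 641.7 in the others, and the gap to the nearest made up 0.882 of the range. Cry2 was lowest in IFNa replicate 4, at 127.7 against 164.5 to 171.3 (0.861 of the range). Fkbp15 was lowest in IFNa replicate 4, at 1095 against 1606 to 1669 (0.910 of the range). The critical value for 4 arrays is 0.829, and chance passes it in about 1 in 20 groups, with 28 groups examined. IFNa replicate 4 is an array of narrow intensity range.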

How the results depend on the processing

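Over 20 alternatives each, the difference of Fkbp5 from untreated ranged from 2.16 to 2.55 with IFNa and from 2.24 to 2.92 with IFNg. Counts of the 8 genes called against untreated are no test, since those comparisons chose the genes. The number of the 8 genes called with IFNa, 2 as reported, was 4 with quantile normalization, 6 with array weights, 5 without the 2 arrays of narrow range, and 1 with median centring, an intensity trend, robust variances, only the groups compared or all single-symbol probe sets. With IFNg it was 2 with array weights instead of 1. In the direct comparison it was 1 with quantile normalization, 4 with array weights and 2 without the narrow arrays, instead of 0. Leaving out single arrays gave 1 to 2, 1 and 0.

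Over all genes, 523 were called with IFNa, but 921 with quantile normalization, 5573 with array weights, 1106 without the narrow arrays and 288 to 600 without single arrays. With IFNg 267 were called, but 119 with only the groups compared, 6167 with array weights, 503 without the narrow arrays and 80 to 391 without single arrays. In the direct comparison 193 were called, but 1645 with array weights, 542 without the narrow arrays and 42 to 276 without single arrays. Array weights ran from 0.12 (IFNa replicate 4) to 5.07 (untreated replicate 2). Of genes called, 67.7% were higher with IFNa, 91.8% with IFNg and 45.1% in the direct comparison, against 54.3%, 77.5% and 58.0% with quantile normalization, 42.3%, 71.2% and 46.1% without the narrow arrays, and 41.9%, 44.3% and 37.3% with array weights. Median centring gave 76.4% with IFNa. The cause was not tested.

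A replicate block by title number called 827 genes with IFNa and 699 with IFNg. A block by description number called 924 with IFNa, and 1 of the 8 genes in the direct comparison (Sgk1, 1.88). With IFNa either block called 3 of the 8 genes, including Sgk1 (1.14 and 1.44) and not Per1 (-0.79 and -0.70). IFNa replicate 4, of narrow range, was the only array numbered 4 in either way, so either block takes it out of the comparison. Against untreated with IFNa, the block by title number gave the same differences as leaving out that array (Sgk1 1.14, Per1 -0.79). Those differences are therefore no sign of pairing. Deviations of IFNa and untreated arrays with the same title number correlated at -0.21, 0.17 and 0.60. With the same description number they correlated at -0.21, -0.44 and 0.1. Untreated replicate 1 correlated best with IFNa replicate 4 (0.61), the other array of narrow range. Whether the numbers pair the arrays cannot be told from this, since deviations from the mean of so few arrays are tied to each other.

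In the direct comparison Cebpd (-0.15) turned to 0.13 with the block by description number and ranged from -0.33 to 0.03 without single arrays, and Fkbp5 (-0.25) ranged from -0.59 to 0.10. Neither was called. Against untreated, Tsc22d3 with IFNa (-0.15) was 0.05 without IFNa replicate 4 and, as the same estimate, with the block by title number. It was 0.20 with the block by description number and 0.04 without untreated replicate 3. With IFNg, Sgk1 (-0.22) and Cebpd (-0.10) were 0.12 and 0.08 without IFNg replicate 1. With array weights Nr3c1 was 0.43 with IFNa (0.69 as reported) and -0.04 with IFNg (0.22).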

Other observations

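In the direct comparison of the interferons, 4 genes of the lists are given here and were named after their values in it were seen. Tsc22d1, a relative of Tsc22d3, was higher with IFNa than with IFNg by 0.83 ± 0.12 (limma adjusted p = 0.0119), with differences from untreated of 0.43 ± 0.11 and -0.40 ± 0.13. That call was lost without IFNg replicate 1, IFNg replicate 2 or IFNa replicate 3 (limma adjusted p = 0.0509 to 0.246). Egr2 was lower with IFNa than with IFNg by -1.77 ± 0.29 (limma adjusted p = 0.0187), a call lost without IFNa replicate 1, 2 or 3 (limma adjusted p = 0.0526 to 0.0633). Arntl, the activator of the circadian clock, had 0.96 ± 0.19 in the same comparison (limma adjusted p = 0.0567), with 0.52 ± 0.17 from untreated with IFNa and -0.44 ± 0.20 with IFNg. Fkbp15, an FKBP family gene, had -0.74 ± 0.18 (limma adjusted p = 0.137).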
